A study of Schizosaccharomyces pombe with 6 samples.

Results

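The cytosolic small (40S) ribosomal subunit of fission yeast is encoded by genes whose names start with rps and a number, and their mRNAs were measured in 2 deletion strains and in WT cells. The members are the protein-coding features of the deposited expression table whose gene name starts with rps followed by a digit, mitochondrial features left out. The rule found 55 genes among 5166 coding and 7001 listed features, and it used no measured value. They encode 31 numbered proteins, of which 22 have 2 copies, 1 (S4) has 3 copies and 8 have a single copy (rps2, rps3, rps7, rps13, rps20, rps21, rps27 and rps29). Most copies end in 01, 02 or 03. The genes are spread over the chromosomes, with 28 on I, 20 on II and 7 on III, and 30 of the 55 have at least 1 intron in the coding sequence.

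RNA was sequenced from vegetative Schizosaccharomyces pombe cells of mug174Δ, which lacks a nuclear protein that forms foci, of red1Δ, which lacks a subunit of the MTREC complex that hands RNA to the nuclear exosome, and of the WT parent, with 2 libraries per strain. Each mutant was made by gene replacement in the same WT background, and the strains were otherwise grown alike in rich YES medium at 32 °C without treatment. RNA of all strains was isolated on 2 occasions, described as biological replicates and independent sequencing experiments, with no word on how the cultures were kept apart. The library codes run on within each replicate number, with 1 library per strain. The replicate numbers were therefore taken to pair the libraries, but the main fits leave this pairing out. A value with the replicate number as a block stands beside a gene, pair or protein number reported by name whose call the block changes. Many counts also change with the block, and those of members, pairs and protein numbers with it are given in the closing section. A p-value here weighs a difference against the spread of these 6 libraries alone, part of which may be technical. Levels are RPKM, reads scaled to the length of the coding sequence and to all reads counted in the library.

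Ribosomal proteins are made in equal amounts, and their mRNAs belong to the most abundant of a growing cell. In yeasts their genes are known to be transcribed as a group that follows nutrient and TOR kinase signals and falls under stress. Many ribosomal proteins kept duplicate genes whose products are nearly or wholly the same, so a cell can draw a given protein from either copy. The rps proteins build the head of the subunit, which holds the tRNAs, and the body and platform, which hold the mRNA path and the decoding site. In fission yeast, promoters of these genes are known for the HomolD box, which takes the place of a TATA box, and for the HomolE box upstream of it.

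The upstream sequences are shown first for the pairs whose copies later differed between strains. Each runs 5′ to 3′ over 100 bases up to the annotated gene start (RefSeq, build ASM294v3), and capitals mark HomolD (CAGTCACA, or TGTGACTG on the other strand) and the core of HomolE (CCCTACCCT, or AGGGTAGGG).
rps1201 (chrIII:553074-553173, plus strand): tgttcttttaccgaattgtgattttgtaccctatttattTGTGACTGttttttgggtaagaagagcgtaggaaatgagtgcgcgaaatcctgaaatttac
rps1202 (chrII:499045-499144, minus strand): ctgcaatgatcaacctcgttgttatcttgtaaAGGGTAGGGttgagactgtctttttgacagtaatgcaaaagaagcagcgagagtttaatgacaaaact
rps1401 (chrI:3436144-3436243, plus strand): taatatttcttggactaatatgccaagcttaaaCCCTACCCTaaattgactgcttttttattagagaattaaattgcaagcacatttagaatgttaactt
rps1402 (chrII:1792263-1792362, plus strand): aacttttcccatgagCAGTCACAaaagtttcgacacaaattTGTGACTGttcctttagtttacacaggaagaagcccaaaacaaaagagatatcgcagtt
rps1501 (chrIII:798144-798243, plus strand): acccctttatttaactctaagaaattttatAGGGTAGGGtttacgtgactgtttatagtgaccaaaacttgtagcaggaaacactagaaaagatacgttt
rps1502 (chrI:3868979-3869078, minus strand): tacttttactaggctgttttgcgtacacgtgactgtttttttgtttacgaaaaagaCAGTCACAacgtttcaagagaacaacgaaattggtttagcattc
rps2201 (chrI:1162659-1162758, minus strand): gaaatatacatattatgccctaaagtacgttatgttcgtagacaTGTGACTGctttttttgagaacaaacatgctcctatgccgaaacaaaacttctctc
rps2202 (chrI:1512391-1512490, minus strand): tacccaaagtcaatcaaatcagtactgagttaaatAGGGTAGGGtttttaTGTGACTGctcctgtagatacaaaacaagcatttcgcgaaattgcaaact
rps2401 (chrI:3598994-3599093, plus strand): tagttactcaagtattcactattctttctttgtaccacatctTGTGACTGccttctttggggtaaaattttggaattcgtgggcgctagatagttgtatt
rps2402 (chrII:2180803-2180902, plus strand): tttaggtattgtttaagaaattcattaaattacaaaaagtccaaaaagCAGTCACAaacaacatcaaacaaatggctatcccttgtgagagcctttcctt

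By these exact letters, the copies carried different boxes in 4 of these 5 pairs. Different boxes are not particular to them. Among pairs whose ratio was not called, rps1901 had both boxes and rps1902 neither, while rps801 and rps802 both had HomolD alone. A link between boxes and ratios was not tested. The copy rps1201 had HomolD and rps1202 the HomolE core, rps1401 had the HomolE core and rps1402 HomolD at 2 positions, and rps1501 had the HomolE core and rps1502 HomolD. Upstream of rps2201 there was HomolD alone, while rps2202 had both boxes. Both rps2401 and rps2402 had HomolD alone. A match is a description of letters, and no match says only that these letters were not in the window.

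Across all members the boxes were frequent and sat at a narrow range of distances. In a window from 250 bases before to 50 bases after the annotated start, searched on both strands, HomolD was found for 34 of 55 members (61.8%), against 137 of 5144 nuclear protein-coding genes (2.66%). The HomolE core was found for 23 members (41.8%), against 78 of the 5144 genes (1.52%). Either box was present for 46 members (83.6%) and both for 11 (20%), and the letters of the boxes do not overlap. The first base of HomolD lay 43 to 85 bases before the start (median 52), and that of the HomolE core 60 to 91 bases before it (median 70). Large subunit genes had HomolD in 50 of 76 windows (65.8%) and the HomolE core in 24 (31.6%). A shorter form of HomolD, CAGTCA, searched after the data were seen, was present for 51 members (92.7%), against 12.4% of the 5144 genes. Among the copies shown above that lack HomolD, rps1401 and rps1501 had this shorter form and rps1202 did not.

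**Figure D1:**
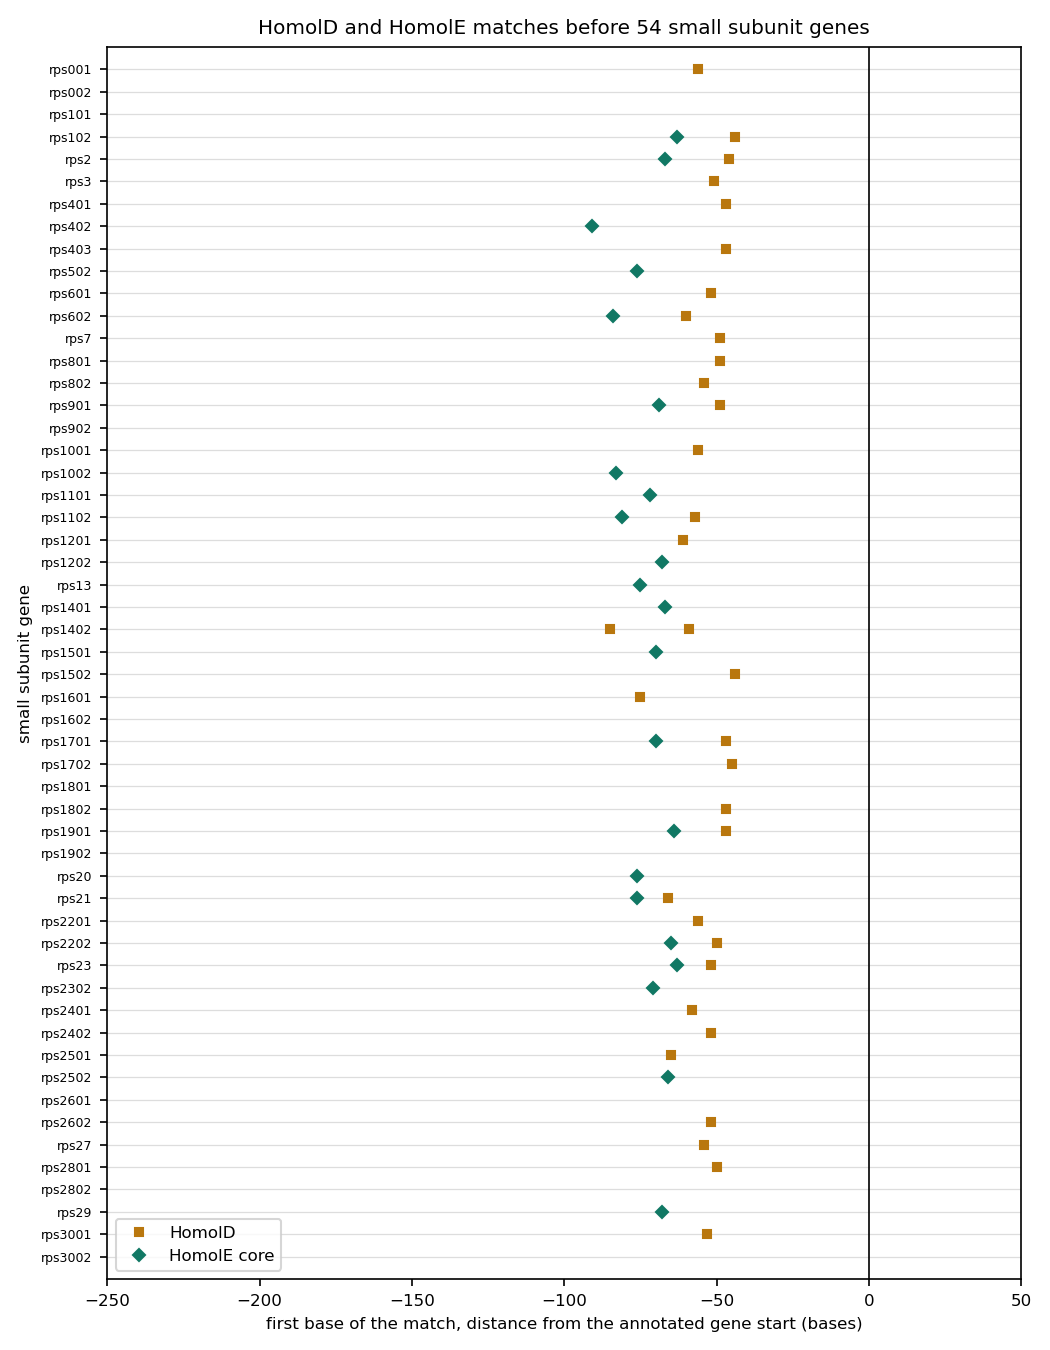
Distance in bases of each HomolD (square) and HomolE core (diamond) match from the annotated gene start (0), for 54 of the 55 small subunit genes, 1 per row. The matches drawn stand between 44 and 91 bases before the start, and where a gene has both, HomolE lies farther from the start.

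Whole reads came back from the RPKM values of every library, and the 6 libraries held 16565908 to 18627129 reads. The deletions were seen in their own strains, with 1 and 0 reads of mug174 in mug174Δ and 1 and 2 reads of red1 in red1Δ. On the deposited scale most features stood a little higher in the mutants than in WT. The median log2 fold change of the 5949 features tested was 0.18 in mug174Δ and 0.35 in red1Δ, both against WT. The split of calls moved with the scale. Against WT, 1179 features rose and 329 fell in mug174Δ and 2880 rose and 436 fell in red1Δ, and after median ratio scaling these became 581 and 601 in mug174Δ and 1075 and 1132 in red1Δ. Between red1Δ and mug174Δ, 958 rose and 195 fell on the deposited scale, and 439 and 336 after scaling. The libraries of red1Δ stood apart from each other for the members, 48 of which were lower in replicate 2 than in replicate 1 (median log2 difference -0.36).

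Of the 55 members, 5 had no read in any library, and the other 50 had between 343 and 74808 reads in each library and passed the filter of 1 RPKM in all 6. Those listed at 0 were rps1101 and rps1102 (both copies of uS17), rps1601 (uS9), rps20 (uS10, a protein of the subunit head) and rps2601 (eS26, which lies at the mRNA exit). They share a layout. Each lies wholly inside a listed non-coding feature on the opposite strand, SPNCRNA.870, SPNCRNA.1015, SPNCRNA.1465, SPNCRNA.1261 and SPNCRNA.625. In the whole table, 327 of the 329 coding features whose every base is shared with the opposite strand alone were at 0 in all 6 libraries (99.4%), as were 2 of the 4287 coding features that share no base with another feature. A value of 0 for these 5 genes is therefore no measure of expression, and S11 and S20 have no usable value. The only other member with a shared base was rps3002, which shares 9.68% of its coding length with abz2.

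Among the 50 members with reads, levels differed by more than an order of magnitude between genes. The mean level of a member ran between 121 and 4619 RPKM in mug174Δ (median 1715), between 149.6 and 4220.0 RPKM in red1Δ (median 1648) and between 203 and 6016 RPKM in WT (median 2602). The gene with the lowest mean in each strain was rps29, which encodes uS14, a small zinc-binding protein of the head. The highest was rps13, which encodes uS15. In WT, rps13 was followed by rps102 at 5383 and 5354 RPKM and rps2 at 4949.9 and 5402 RPKM. Those 2 genes did not differ beyond their spread, with WT means of 5369 ± 20.1 RPKM and 5176 ± 320.0 RPKM (SD, n = 2). Longer members tended to have more RPKM in WT (Spearman rho 0.47 across the 50 members, which share libraries and are no replicates).

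**Figure D2:**
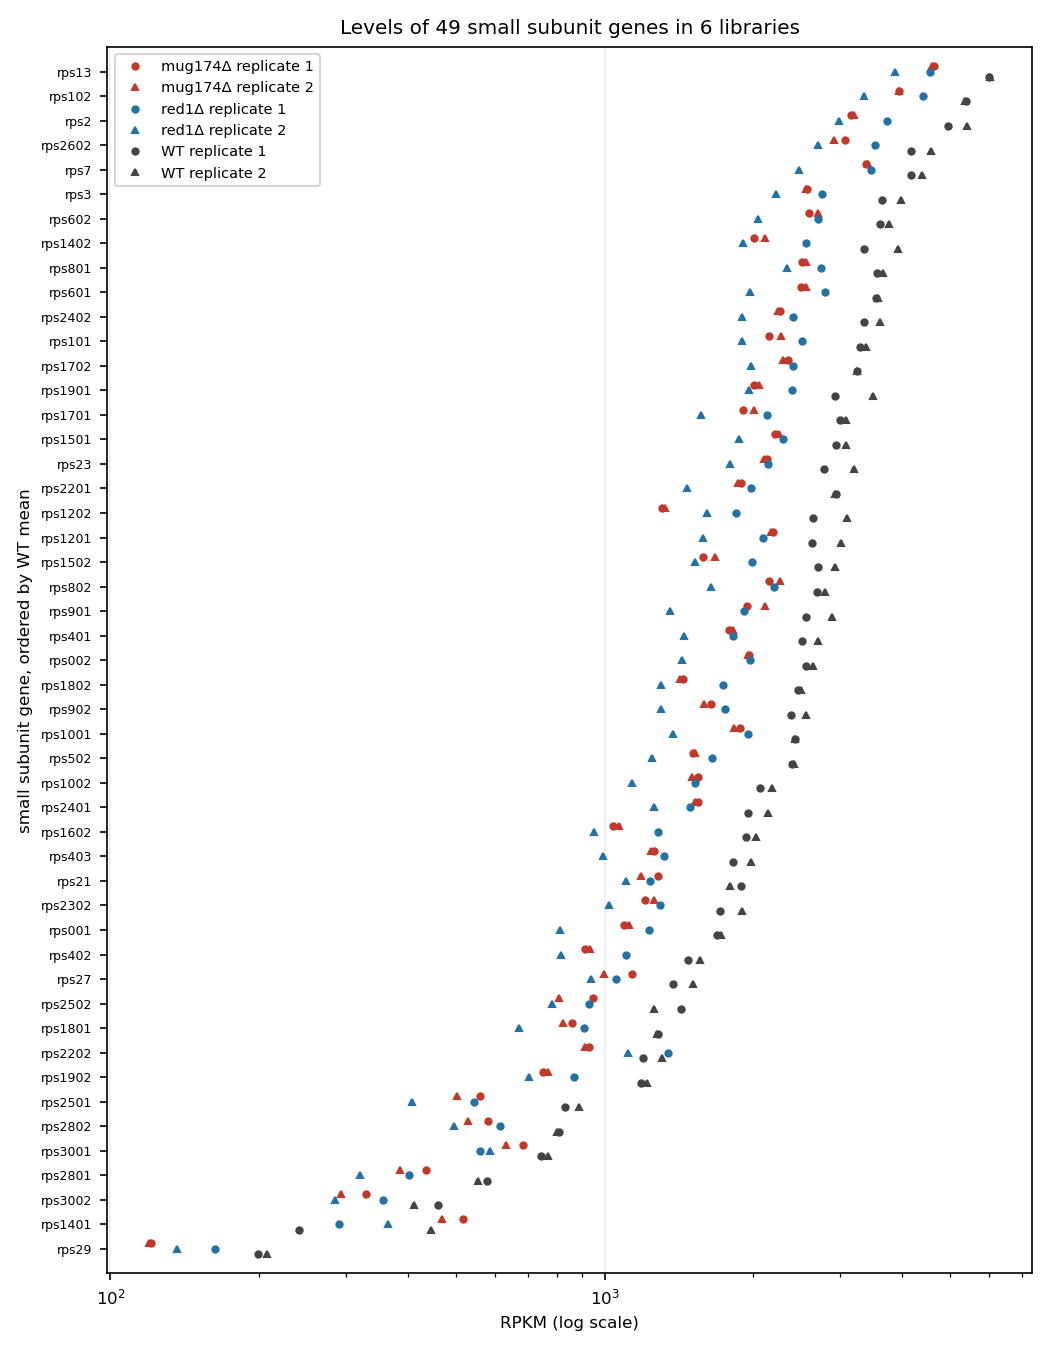
RPKM on a log scale for 49 of the 50 small subunit genes with reads, ordered by the WT mean, with replicate 1 as circles and replicate 2 as triangles of mug174Δ (red), red1Δ (blue) and WT (grey). The WT points lie to the right of nearly all mutant points, with rps1401 and rps2202 as exceptions, and the red1Δ triangles lie left of the red1Δ circles for 47 of those shown.

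The members as a group took a smaller share of the reads in both mutants. They held 4.66% and 4.69% of the reads in the mug174Δ libraries, 5.05% and 3.91% in the red1Δ libraries, and 6.64% and 7.01% in the WT libraries. The mutant values lay below both WT values. Relative to WT the mean share dropped by 2.15 percentage points in mug174Δ and dropped by 2.35 points in red1Δ, and a 2-sided exact permutation test gave p = 0.333 for each, the smallest value that 2 libraries against 2 can give. In bulk RNA, fewer cells with these mRNAs and less mRNA per cell cannot be told apart, and shares of reads say nothing of the total RNA per cell.

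The comparison of mug174Δ with WT asks how the transcriptome changes without Mug174. Small subunit mRNAs were lower in mug174Δ, by a median log2 fold change of -0.55 over the 50 members, which is 68.4% of the WT level. Against the median of all features the difference was -0.73. By limma with Benjamini-Hochberg adjustment over all features, 31 of the 50 members fell and 0 rose, where 5.53% of all features fell and 19.8% rose. For 49 members both mutant libraries lay below both WT libraries, as for 20.3% of all features. The exception, rps1401, stood higher in both mug174Δ libraries.

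The largest fall in mug174Δ was that of rps1202, 1 of the 2 genes for eS12, a protein of the beak of the head. It had 1305 and 1328 RPKM in mug174Δ and 2637 and 3089 RPKM in WT. The groups were far apart, with a log2 fold change of -1.12 ± 0.14 (SE) and an adjusted p of 0.00801, and 46.0% of the WT mean was left. Next came rps1602, for uS9, whose tail reaches the P-site tRNA in ribosomes of other species. It had 1042 and 1068 RPKM in mug174Δ and 1931 and 2025 RPKM in WT (log2 fold change -0.91 ± 0.16, adjusted p = 0.0148). Since the other gene for uS9, rps1601, has no usable value, nothing can be said of the sum of both.

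Further members of the head and platform followed at a similar size. The uS11 gene rps1402 had 2008 and 2112 RPKM in mug174Δ and 3353 and 3917 RPKM in WT (-0.82 ± 0.18, adjusted p = 0.027). For uS13, which contacts the large subunit, rps1802 had 1443 and 1421 RPKM in mug174Δ and 2468 and 2493 RPKM in WT (-0.79 ± 0.16, adjusted p = 0.0209). For its neighbour uS19, rps1502 had 1582 and 1669.8 RPKM in mug174Δ and 2698 and 2933 RPKM in WT (-0.79 ± 0.16, adjusted p = 0.0216). In all 3 genes the mutant and WT libraries were well separated.

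At the other end stood rps1401, the minor copy for uS11. It had 517 and 469 RPKM in mug174Δ and 241 and 445 RPKM in WT, where the WT libraries differed by more than the gap between the groups. Its log2 fold change of 0.59 ± 0.28 did not pass the test (adjusted p = 0.168, and 0.109 to 0.328 over the alternatives with all libraries of both strains). The next smallest differences also missed the threshold. The eS30 gene rps3001 had 683 and 632 RPKM in mug174Δ and 745 and 770.1 RPKM in WT (adjusted p = 0.134). The eS8 gene rps802 had 2147 and 2264 RPKM in mug174Δ and 2696 and 2788 RPKM in WT (adjusted p = 0.204), and rps1201, the second gene for eS12, had 2196 and 2175 RPKM in mug174Δ and 2631 and 3008 RPKM in WT (adjusted p = 0.159). In each of these 3 genes the mutant libraries nevertheless lay below both WT libraries.

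The count of calls in mug174Δ rests on having both libraries of each strain. Without any single WT or mug174Δ library limma called 0 members (18 to 28 with an unadjusted p under 0.05), while 49 of 50 stayed lower in each of these fits, and a fit of only mug174Δ and WT, or without either red1Δ library, called 48.

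**Figure D3:**
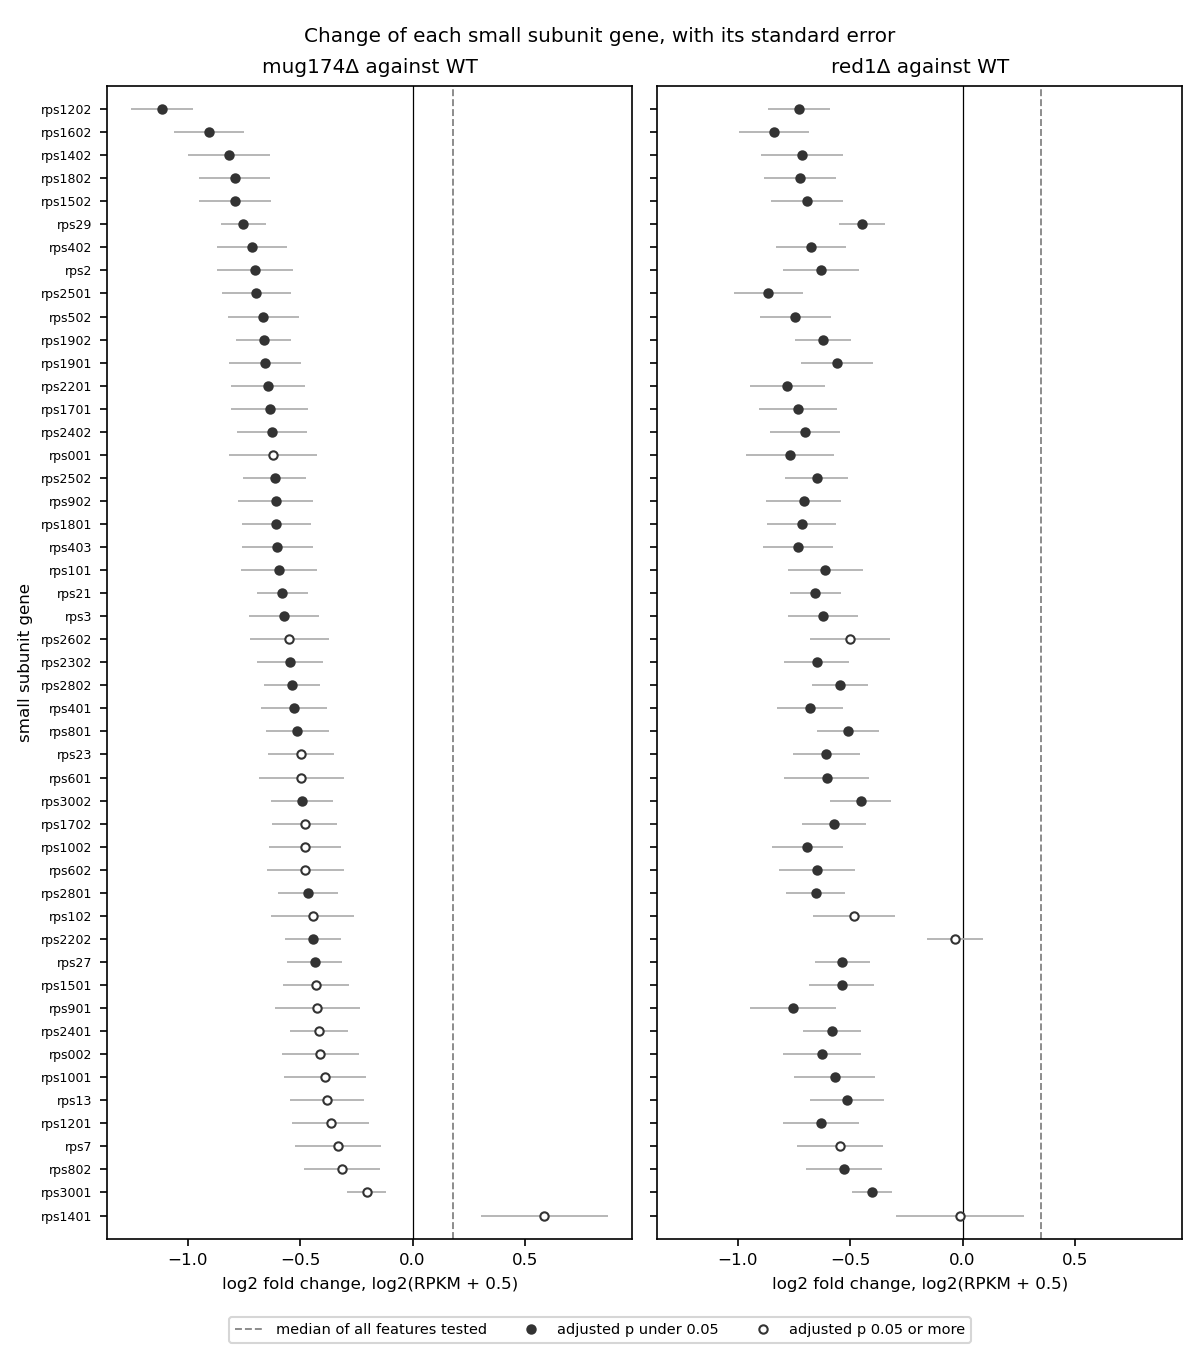
Log2 fold change of 49 of the 50 small subunit genes with reads, each with its standard error (bars), in mug174Δ against WT (left) and red1Δ against WT (right). Filled points have an adjusted p under 0.05 (30 of those shown in mug174Δ, 44 in red1Δ), the dashed line is the median of all features tested (0.18 and 0.35), and genes run in the order of the mug174Δ change.

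The comparison of red1Δ with WT asks the same of a strain without Red1, with the same WT libraries. Small subunit mRNAs were lower in red1Δ too, by a median log2 fold change of -0.63 over the 50 members, which is 64.6% of the WT level. Against the median of all features the difference was -0.98. Of the 50 members 45 fell and 0 rose, where 7.33% of all features fell and 48.4% rose. Both red1Δ libraries lay below both WT libraries for 48 members and for 13.3% of all features, and the exceptions were rps1401 and rps2202.

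The lowest values in red1Δ relative to WT were those of rps2501, 1 of the genes for eS25, a head protein near the E site. It had 545 and 408 RPKM in red1Δ and 833 and 887 RPKM in WT (-0.86 ± 0.15, adjusted p = 0.00655). The uS9 gene rps1602 had 1281 and 953 RPKM in red1Δ and 1931 and 2025 RPKM in WT (-0.84 ± 0.16, adjusted p = 0.00772). It thus stood among the 2 lowest members in both comparisons, which share their WT libraries. For uS8, rps2201 had 1979 and 1470.4 RPKM in red1Δ and 2938 and 2920.0 RPKM in WT (-0.78 ± 0.17, adjusted p = 0.011). The uS2 gene rps001 had 1230.3 and 814 RPKM in red1Δ and 1688 and 1723 RPKM in WT (-0.77 ± 0.20, adjusted p = 0.0194). The uS4 gene rps901, for a protein of the mRNA entry, had 1913 and 1358 RPKM in red1Δ and 2561 and 2886 RPKM in WT (-0.75 ± 0.19, adjusted p = 0.0187). In each of these genes the lower red1Δ value was that of replicate 2.

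Some members stood near their WT levels in red1Δ on the deposited scale. Against the median of all features the nearest, rps1401 and rps2202, were lower (log2 -0.36 and -0.38). The minor uS11 copy rps1401 had 289.7 and 364 RPKM in red1Δ and 241 and 445 RPKM in WT, with red1Δ inside the range of WT (-0.01 ± 0.28, adjusted p = 0.976). The uS8 copy rps2202 had 1343 and 1113 RPKM in red1Δ and 1195 and 1309.5 RPKM in WT, which overlap (-0.03 ± 0.13, adjusted p = 0.835). Both differences changed sign in fits without 1 library, to 0.43 for rps1401 without WT replicate 2 and 0.15 without red1Δ replicate 1, and to 0.033 for rps2202 without WT replicate 2 and 0.10 without red1Δ replicate 2. The smallest changes that still passed the test were those of the eS30 genes and of rps29. The gene rps3001 had 560.4 and 585 RPKM in red1Δ and 745 and 770.1 RPKM in WT (-0.40 ± 0.09, adjusted p = 0.0123), and rps3002 had 357 and 284 RPKM in red1Δ and 461 and 412 RPKM in WT (-0.45 ± 0.14, adjusted p = 0.0323).

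The number of calls in red1Δ changed with the libraries used. It was 4 without WT replicate 1, 3 without WT replicate 2, and 28 or 29 without a mug174Δ library or in a fit of only red1Δ and WT, against 47 or 48 without a red1Δ library. The median over members was -0.82 without red1Δ replicate 1 and -0.47 without red1Δ replicate 2, so the size of the difference depended on the library while its direction held in at least 48 members.

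Side by side, 30 members passed the test in both comparisons, 15 in red1Δ alone, 1 (rps2202, adjusted p = 0.0561 with the block) in mug174Δ alone, and 4 (rps102, rps1401, rps2602 and rps7) in neither. These counts rest on a spread shared by the 3 strains. In fits of only the 2 strains compared, more members fell in mug174Δ than in red1Δ, so the larger count in red1Δ depends on the fit. Passing in a single strain does not show that the strains differ, and the direct comparison of red1Δ with mug174Δ called 0 members in either direction with limma (3 with an unadjusted p under 0.05), where 3.28% of all features fell and 16.1% rose. With voom weights on the whole reads 1 member, rps2202, rose. Both red1Δ libraries lay below both mug174Δ libraries for 6 members and for 14.3% of all features. The median log2 difference over members was -0.10, or -0.28 against the median of all features. Without red1Δ replicate 1 limma called 19 members lower in red1Δ, and without red1Δ replicate 2 it called 2 higher, rps2202 and rps29.

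By log2 size, the members that differed most between the mutants had more than 1 copy, as have 43 of the 50 members. The eS12 copy rps1202 had 1842 and 1611 RPKM in red1Δ and 1305 and 1328 RPKM in mug174Δ (0.39 ± 0.14, adjusted p = 0.0946). The uS8 copy rps2202 had 1343 and 1113 RPKM in red1Δ and 928 and 913 RPKM in mug174Δ (0.41 ± 0.13, adjusted p = 0.0689). Both libraries of red1Δ were above both of mug174Δ for these genes. Also higher in red1Δ was rps29, with 163 and 136 RPKM in red1Δ and 121 and 119.9 RPKM in mug174Δ (0.30 ± 0.10, adjusted p = 0.0836). In the opposite direction, rps1401 had 289.7 and 364 RPKM in red1Δ and 517 and 469 RPKM in mug174Δ (-0.60 ± 0.28, adjusted p = 0.174). The uS4 gene rps901 had 1913 and 1358 RPKM in red1Δ and 1943 and 2114 RPKM in mug174Δ (adjusted p = 0.245). None of these differences passed the test. The others at the low end were rps1201, rps002 and rps802 (log2 -0.27, -0.22 and -0.21). For the uS2 gene rps002 the levels were 1974 and 1435 RPKM in red1Δ and 1958 and 1951 RPKM in mug174Δ. For rps802 they were 2199 and 1644 RPKM in red1Δ and 2147 and 2264 RPKM in mug174Δ. At the high end rps1402 and rps1502 had overlapping libraries (log2 0.10 and 0.10).

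The single-copy genes show the change free of any split of reads between copies. With reads there were 7, of which 5 fell in mug174Δ and 6 in red1Δ, where 5.53% and 7.33% of all features fell. In the head, rps3, for uS3 at the mRNA entry, had 2563 and 2562 RPKM in mug174Δ, 2754 and 2224 RPKM in red1Δ and 3645 and 3979 RPKM in WT. It fell in mug174Δ (-0.57 ± 0.16, adjusted p = 0.0452, and 0.0612 with the block) and in red1Δ (-0.62 ± 0.16, adjusted p = 0.0186). The uS14 gene rps29 had 121 and 119.9 RPKM in mug174Δ, 163 and 136 RPKM in red1Δ and 199 and 208 RPKM in WT. It fell by 0.75 on the log2 scale in mug174Δ (SE 0.10, adjusted p = 0.0094) and by 0.45 in red1Δ (adjusted p = 0.0134).

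In the body and platform the single-copy genes behaved alike in direction. The uS5 gene rps2, for a protein of the mRNA entry, had 3148 and 3203 RPKM in mug174Δ, 3733 and 2984 RPKM in red1Δ and 4949.9 and 5402 RPKM in WT, and it fell in mug174Δ (-0.70 ± 0.17, adjusted p = 0.0323) and in red1Δ (-0.63 ± 0.17, adjusted p = 0.0227). The eS21 gene rps21 had 1280.2 and 1184 RPKM in mug174Δ, 1236 and 1103 RPKM in red1Δ and 1886 and 1794 RPKM in WT, and fell in both (adjusted p = 0.0198 in mug174Δ and 0.00632 in red1Δ). The eS27 gene rps27 had 1137 and 999 RPKM in mug174Δ, 1054 and 939.6 RPKM in red1Δ and 1378 and 1509 RPKM in WT, and fell in both (adjusted p = 0.0483 in mug174Δ, or 0.0518 with the block, and 0.0139 in red1Δ). All mutant libraries of these 3 genes were below both WT libraries. The uS15 gene rps13 had 4636 and 4602 RPKM in mug174Δ, 4562 and 3878 RPKM in red1Δ and 6008 and 6024 RPKM in WT, and passed the test in red1Δ (adjusted p = 0.0386, and 0.0726 with the block) and not in mug174Δ (adjusted p = 0.133). The eS7 gene rps7 had 3375 and 3407 RPKM in mug174Δ, 3453 and 2479.8 RPKM in red1Δ and 4162 and 4384 RPKM in WT, and passed in neither (adjusted p = 0.235 in mug174Δ and 0.0522 in red1Δ).

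Grouped by place in the subunit, as known from ribosome structures of other species and chosen after the values were seen, the difference was spread over both parts. In the head, 16 of 21 members with reads fell in mug174Δ and 21 in red1Δ, where 5.53% and 7.33% of all features fell in these strains, with median log2 fold changes of -0.62 and -0.65. In the body and platform, 15 of 29 fell in mug174Δ and 24 in red1Δ, with medians of -0.50 and -0.61. Members for eS6, the protein phosphorylated downstream of TOR, were within the range of the others, at -0.49 and -0.48 in mug174Δ and -0.60 and -0.65 in red1Δ for rps601 and rps602.

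Gene structure and promoter letters went with little difference between members. The 29 members with an intron in the coding sequence had a median log2 fold change of -0.58 in mug174Δ and -0.65 in red1Δ, and the 21 without had -0.51 and -0.63. For the 32 members with HomolD and reads the medians were -0.52 in mug174Δ and -0.63 in red1Δ, against -0.60 and -0.64 for the 18 without. For the 20 members with the HomolE core the medians were -0.56 and -0.65, against -0.54 and -0.62 for the 30 without. The level in WT had no visible relation to the change across the 50 members (Spearman rho 0.0093 in mug174Δ and 0.012 in red1Δ, with the WT values on both sides of the comparison).

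Copies of a protein were mostly unequal within a strain, and the same copy led in nearly every case. Ratios were taken per library as log2 of the lower-numbered over the higher-numbered copy, for 22 of the 25 pairs, since rps1101 with rps1102, rps1601 with rps1602 and rps2601 with rps2602 hold a gene listed at 0. The copies differed in 21 pairs in mug174Δ, 19 in red1Δ and 18 in WT, by limma over the 90 pairs of coding genes whose names mark them as copies, of which 88.9%, 90% and 86.7% differed in these strains. The median ratio between the larger and the smaller copy was 0.66 in mug174Δ, 0.62 in red1Δ and 0.58 in WT on the log2 scale. In 20 of 22 pairs the same copy was higher in all 6 libraries, and the exceptions were rps601 with rps602 and rps1201 with rps1202.

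The most unequal pair was that for uS11. In WT, rps1402 was 11.05-fold above rps1401 per coding length, and log2 ratios of rps1401 over rps1402 were -1.96 and -2.17 in mug174Δ, -3.14 and -2.39 in red1Δ and -3.79 and -3.14 in WT. The copies encode the same protein, and 14.02% of the 50-base words of each coding sequence occur in the other, so some reads could be counted for either. For eS19, rps1901 was 2.66-fold above rps1902 in WT, with 2931 and 3491 RPKM against 1182 and 1221 RPKM. The log2 ratio was 1.42 and 1.42 in mug174Δ, 1.47 and 1.48 in red1Δ and 1.31 and 1.52 in WT, so the mutant libraries lay between those of WT. In mug174Δ, rps1901 had 2002 and 2058 RPKM and rps1902 749 and 769 RPKM, and in red1Δ they had 2400.1 and 1964 and 867 and 704 RPKM. Both eS19 copies fell (adjusted p = 0.0337 and 0.0173 in mug174Δ, 0.0279 and 0.00897 in red1Δ). No change of their log2 ratio against WT was called (0.0056 ± 0.077 in mug174Δ and 0.062 ± 0.077 in red1Δ, SE).

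Over all pairs the copies shared 79.9% to 100% of residues and 74.0% to 94.0% of coding bases, and 8 of the 25 pairs had identical proteins.

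**Figure D4:**
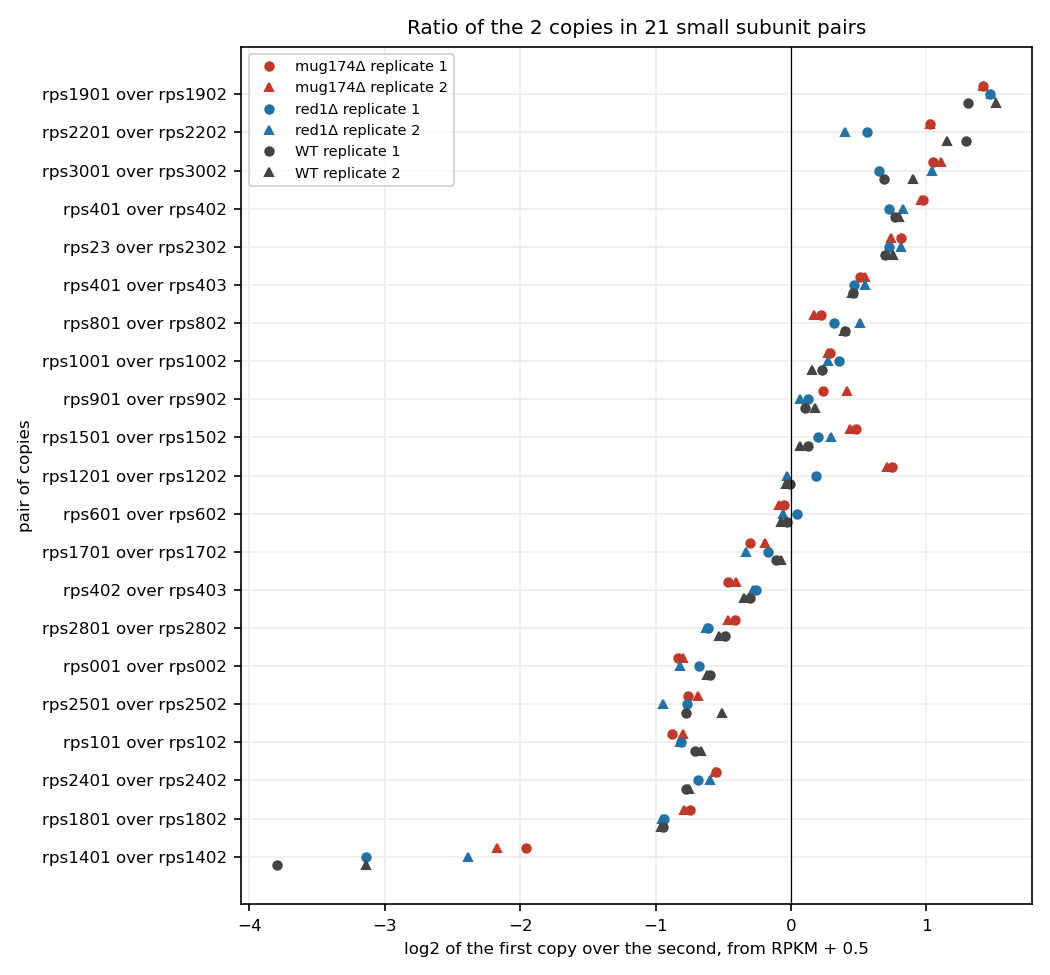
Log2 ratio of the first over the second named copy (from RPKM + 0.5) in each library for 21 of the 22 pairs, with replicate 1 as circles and replicate 2 as triangles of mug174Δ (red), red1Δ (blue) and WT (grey). For most pairs no change of ratio between strains was called. The ratio of rps1201 over rps1202 lies near 0 in WT and at 0.75 and 0.71 in mug174Δ, and that of rps2201 over rps2202 is lowest in red1Δ.

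Between strains a change in the ratio of copies was called in a few pairs. Over the 90 pairs, limma called 20 in each of the 3 comparisons (22.2%). Of the 22 small subunit pairs it called 4 in mug174Δ against WT, 1 in red1Δ against WT and 3 in red1Δ against mug174Δ, a smaller share than over all pairs each time. With an unadjusted p under 0.05 by limma there were 11, 3 and 9. A pair that missed the threshold is thus not shown to have kept its ratio. The called pairs were those for eS12, uS11, uS19, eS24 and uS8. With the block the pair rps101 and rps102 also passed in mug174Δ against WT (adjusted p = 0.0495, and 0.0661 without it).

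For eS12 the balance moved in mug174Δ. The log2 ratio of rps1201 over rps1202 was 0.75 and 0.71 in mug174Δ, 0.18 and -0.03 in red1Δ and -0.00 and -0.04 in WT. The copy rps1201 gave 62.4% of the summed RPKM of the pair in mug174Δ, 51.5% in red1Δ and 49.6% in WT. The mug174Δ libraries were above all others, and the ratio changed by 0.75 ± 0.08 against WT (SE, adjusted p = 0.00194) and by -0.65 ± 0.08 in red1Δ against mug174Δ (adjusted p = 0.00333). Both copies were lower than in WT, so the change came with the larger fall of rps1202. The copies share 81.8% of residues and no 50-base word of coding sequence.

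For uS11 the minor copy gained weight. As given above, rps1402 was lower and rps1401 was not lower in mug174Δ, and rps1401 made up 19.3% of the pair in mug174Δ, 12.8% in red1Δ and 8.62% in WT. The change of the log2 ratio in mug174Δ against WT was 1.40 ± 0.31 (adjusted p = 0.0247), with both mug174Δ libraries above both WT libraries. In red1Δ against WT it was 0.70 ± 0.31 (adjusted p = 0.153), and in red1Δ against mug174Δ -0.70 ± 0.31 (adjusted p = 0.159), neither of which passed. The WT libraries were themselves apart in this ratio, as given above.

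For uS19 and eS24 the changes were smaller than for eS12 and uS11. The ratio of rps1501 over rps1502 was 0.48 and 0.43 in mug174Δ, 0.20 and 0.30 in red1Δ and 0.12 and 0.07 in WT, a change of 0.36 ± 0.06 in mug174Δ against WT (adjusted p = 0.00712). In red1Δ against mug174Δ it changed by -0.21 ± 0.06 (adjusted p = 0.0464, 0.0673 with the block, and 0.0456 to 0.0900 over the alternatives with all libraries of both strains). The ratio of rps2401 over rps2402 was -0.55 and -0.56 in mug174Δ, -0.69 and -0.60 in red1Δ and -0.78 and -0.75 in WT. It changed by 0.21 ± 0.05 in mug174Δ against WT (adjusted p = 0.0335, and up to 0.0513 without a trend in the spread). The uS19 copy rps1501 had 2209 and 2257 RPKM in mug174Δ and 2942 and 3074 RPKM in WT, a smaller difference than that of its partner rps1502, given above.

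For uS8 the balance moved in red1Δ. The log2 ratio of rps2201 over rps2202 was 1.02 and 1.03 in mug174Δ, 0.56 and 0.40 in red1Δ and 1.297 and 1.16 in WT. The red1Δ libraries were below all others, and rps2201 gave 58.4% of the pair in red1Δ, 67.1% in mug174Δ and 70.0% in WT. The change was -0.75 ± 0.08 in red1Δ against WT (adjusted p = 0.00285) and -0.55 ± 0.08 in red1Δ against mug174Δ (adjusted p = 0.00656). In mug174Δ against WT it was -0.20 ± 0.08 (adjusted p = 0.115), with rps2201 at 1889 and 1859 RPKM and rps2202 at 928 and 913 RPKM in mug174Δ. The copies encode the same protein and share 92.4% of coding bases and 0.291% of 50-base words. The pair for eS25, whose change in red1Δ against WT came after those for uS8 and uS11 in size, did not pass (-0.22 ± 0.11, adjusted p = 0.193), with rps2502 at 931 and 784 RPKM in red1Δ and 1427 and 1259 RPKM in WT.

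Calls of pairs against WT also moved with the libraries. In mug174Δ 2 pairs passed without WT replicate 1 or 2, 0 without mug174Δ replicate 1 (5 with an unadjusted p under 0.05 by limma), 1 without mug174Δ replicate 2, and 8 without either red1Δ library. In red1Δ 1 pair passed without any WT or mug174Δ library, 6 without red1Δ replicate 1 and 2 without red1Δ replicate 2. In red1Δ against mug174Δ 2 passed without a WT library, 0 without a mug174Δ library (3 or 4 with an unadjusted p under 0.05), and 4 or 5 without a red1Δ library.

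**Figure D5:**
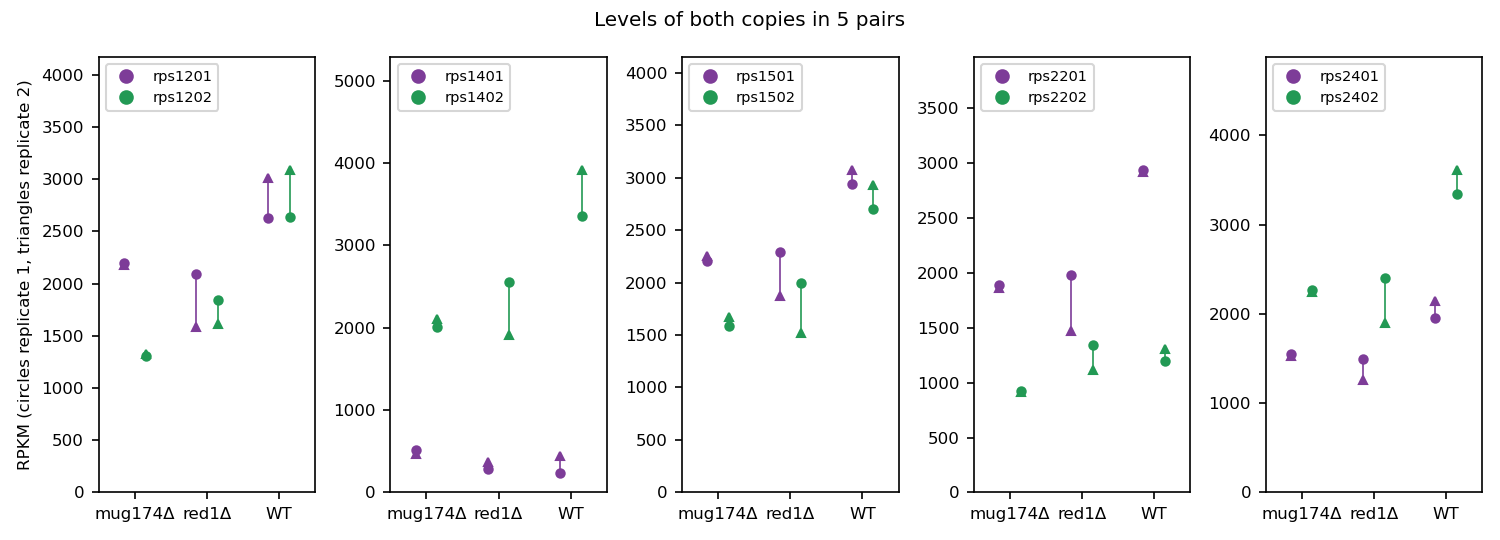
RPKM of both copies of 5 pairs (purple the first, green the second copy) in mug174Δ, red1Δ and WT, with circles for replicate 1, triangles for replicate 2 and a line joining the libraries of a strain. In mug174Δ rps1202 is far below rps1201, with which it is level in WT, and in red1Δ rps2202 overlaps its WT values while rps2201 is lower.

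Summed over copies, every protein number with reads was lower in both mutants. Of 29 numbers, 15 fell in mug174Δ and 28 in red1Δ, with 0 that rose. In the fit with copies kept apart, 5.53% and 7.33% of all features fell in these strains. The log2 fold changes ran between -0.91 and -0.30 in mug174Δ (median -0.55) and between -0.84 and -0.42 in red1Δ (median -0.62). The lowest value in both strains was that of S16, which is rps1602 alone, as S26 is rps2602 alone. For these numbers the other copy is listed at 0, so the value is no sum. For S12 the sum changed by -0.69 in mug174Δ (adjusted p = 0.0330) and -0.68 in red1Δ (adjusted p = 0.0179), and for S14 by -0.63 (adjusted p = 0.0434, and 0.0565 with the block) in mug174Δ and -0.64 in red1Δ (adjusted p = 0.0225). For S22 the changes were -0.58 in mug174Δ (adjusted p = 0.0459, and 0.0526 with the block) and -0.51 in red1Δ (adjusted p = 0.0359). The number that missed the threshold in red1Δ was S1 (-0.53, adjusted p = 0.0585). In red1Δ against mug174Δ 0 numbers were called by limma.

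Genes around the members moved in part with them. Of 76 large subunit (rpl) genes 72 were tested, and 33 fell in mug174Δ and 60 in red1Δ (32 and 56 with the block). Of all features 5.53% and 7.33% fell in these strains. The rpl genes that rose were 0 and 2 (rpl102 and rpl3002, named after their values were seen), where 19.8% and 48.4% of all features rose. Their median log2 fold changes were -0.55 and -0.61. Of the 3 genes for small subunit proteins with other names, each missed the threshold in mug174Δ and 2 fell in red1Δ. The gene cpc2, for the RACK1 scaffold on the head, shares 44.4% of its coding length with another feature. It had 2032 and 2222 RPKM in mug174Δ, 2427 and 1701 RPKM in red1Δ and 3292 and 3421 RPKM in WT, and fell in red1Δ (-0.72 ± 0.19, adjusted p = 0.0222) while mug174Δ missed the threshold (-0.66 ± 0.19, adjusted p = 0.0530). Of the ubiquitin fusions that encode eS31, ubi5 fell in red1Δ (-0.59 ± 0.14, adjusted p = 0.0159) and did not pass in mug174Δ (-0.46 ± 0.14, adjusted p = 0.0581). The other, ubi3, passed in neither (-0.40 ± 0.15, adjusted p = 0.0965 in mug174Δ, and -0.39 ± 0.15, adjusted p = 0.0674 in red1Δ).

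Of 22 genes for factors that assemble the small subunit, 5 rose and 0 fell in mug174Δ, where 19.8% of all features rose, and 3 rose and 1 (rcl1, named likewise) fell in red1Δ, where 48.4% of all features rose. With the block 11 rose in mug174Δ and 4 in red1Δ. The gene imp4, for a U3 snoRNP protein of early assembly, had 109 and 96.9 RPKM in mug174Δ, 64.4 and 61.0 RPKM in red1Δ and 49.2 and 42.7 RPKM in WT, and rose in mug174Δ (1.16 ± 0.11, adjusted p = 0.00483) and in red1Δ (0.45 ± 0.11, adjusted p = 0.0156). Also raised in both were dip2 (0.71 ± 0.11 in mug174Δ and 0.45 ± 0.11 in red1Δ) and enp1 (0.66 ± 0.12 and 0.47 ± 0.12). After median ratio scaling 2 rose and 0 fell in mug174Δ, and 0 rose and 5 fell in red1Δ, so that the counts for red1Δ turn with the scale. Of 13 tested mitochondrial small subunit genes, 5 rose and 0 fell in mug174Δ and 2 rose and 0 fell in red1Δ. These counts became 0 and 0 in mug174Δ and 1 and 4 in red1Δ after scaling. With the block 6 rose in mug174Δ and 3 in red1Δ.

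Of 18 genes for TOR signalling and regulators of ribosomal protein genes, 2 rose and 1 fell in mug174Δ and 14 rose and 1 fell in red1Δ. Of all features 19.8% rose and 5.53% fell in mug174Δ, and 48.4% rose and 7.33% fell in red1Δ. With the block 4 rose in mug174Δ, and after scaling 1 rose and 1 fell in mug174Δ and 2 rose and 3 fell in red1Δ. The gene sfp1, whose budding yeast namesake activates ribosomal protein genes, had 28.6 and 24.1 RPKM in mug174Δ, 35.6 and 45.5 RPKM in red1Δ and 14.3 and 16.6 RPKM in WT, and rose in mug174Δ (0.75 ± 0.16, adjusted p = 0.0250) and in red1Δ (1.36 ± 0.16, adjusted p = 0.00253). The kinase gene gad8 rose by 0.43 ± 0.08 in mug174Δ and 0.60 ± 0.08 in red1Δ. In the opposite direction, ckb1, for a subunit of casein kinase 2, fell in mug174Δ (-0.41 ± 0.08, adjusted p = 0.0178).

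Some genes listed as markers of other cell states rose in the same strains. Of 9 tested genes of sexual differentiation 4 rose and 0 fell in mug174Δ and 5 rose and 0 fell in red1Δ, where 19.8% and 48.4% of all features rose. After scaling 3 rose and 0 fell in mug174Δ, and 4 rose and 1 fell in red1Δ. With the block 5 rose and 1 fell in red1Δ. Their summed level was 178 and 175 RPKM in mug174Δ, 362 and 422 RPKM in red1Δ and 129 and 122 RPKM in WT, and mfm3 was at 0 in all libraries. Of these sums mei4 made up 10.5 and 10.8 RPKM in mug174Δ, 148 and 176 RPKM in red1Δ and 5.76 and 6.79 RPKM in WT. Since red1Δ lacks a factor that hands RNA to the exosome, a higher mRNA there need not mark a cell state, which was not tested. Of 11 tested core stress genes 3 rose and 0 fell in mug174Δ and 8 rose and 0 fell in red1Δ, which became 2 and 5 that rose and 0 that fell after scaling. Their summed level was 7952 and 6384 RPKM in mug174Δ, 9118 and 12056 RPKM in red1Δ and 4777 and 4292 RPKM in WT, with cta3 at 0. Of these sums hsp9 made up 3372 and 2100 RPKM in mug174Δ, 4564 and 6294 RPKM in red1Δ and 1828 and 1660 RPKM in WT. In red1Δ replicate 2, where 48 members were lower than in replicate 1, the stress sum was the higher of the 2 libraries. In mug174Δ and WT the stress sum was lower in replicate 2. The members took 4.66% and 4.69% of the reads in mug174Δ and 6.64% and 7.01% in WT. The part of these states in the lower level of the members was not tested.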

How the data were processed

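Levels come from the authors' deposited RPKM values, 1 column per library. The authors also deposited log2 fold changes and p-values of their own comparisons, which were not used. HISAT2 and build ASM294v2 are named in the paper, while StringTie 1.3.1c, STAR 2.5.3a and FastQC 0.11.6 stand in the processing notes of the submitters. Poly(dT) enrichment is described in the paper and an rRNA depletion kit in the labels. The counter, its strand setting and the annotation release were not given in the sources used here. Other per-sample columns numbered 0. Values were whole reads within 0.01 for 100% of features, and depth covers counting error only.

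Differences between strains were fitted on log2(RPKM + 0.5) with limma 3.58.1 (R 4.3.3), and low genes appear less changed on this scale than they are. Each strain had 1 mean, all 6 libraries shared their spread, and eBayes used a trend. The design text and the library codes tie each replicate number to 1 of 2 experiments, and deviations of same-numbered libraries correlated at 0.19 (mug174Δ and WT), 0.23 (red1Δ and WT) and 0.063 (red1Δ and mug174Δ). Tests were 2-sided, with p-values adjusted by Benjamini-Hochberg (threshold 0.05) over 5949 features that reached 1 RPKM in 2 or more libraries. Log2 ratios of copies were fitted likewise over 90 of 104 pairs named as copies. The alternatives were pseudocounts of 0.1 and 1 RPKM, no filter or 5 RPKM, median ratio scaling, no trend, voom weights, a replicate block, fits of 2 strains, summed copies and each library left out. On simulated reads, limma called 98% of features halved in truth in mug174Δ against WT and 0.21% of unchanged ones, among 5914 fitted. The simulated libraries varied independently, with a single spread for all features and no shift between replicates. Only features with enough reads were changed. These shares therefore give no power or error rate of the test on the real libraries.

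Values in every library are given for the 5 members with the lowest and the 5 with the highest fold change per comparison, for the 3 most unequal pairs in WT, the 3 pairs with the largest change per comparison, and the single-copy members. From other lists up to 4 genes with the smallest p could be named. Members and lists were chosen with earlier results of these data known. In RefSeq (ASM294v3) all 55 members have the same coding exons as in the table. Sequences were compared with Biopython 1.88. Of the members, 1 gene is counted in all totals and is not reported on its own here, nor drawn in the plots.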

Additional observations from a re-analysis of the deposited data

How the results depend on the processing

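With voom weights, no trend, median ratio scaling, the block, pseudocounts of 0.1 or 1 RPKM, a minimum of 5 RPKM or no minimum, the counts of members that fell stayed within 1.5 times the reported 31 in mug174Δ and 45 in red1Δ, and 0 rose against WT. A fit of only the 2 strains called 48 in mug174Δ and 28 in red1Δ. Summing copies gave 15 and 28 of 29 protein numbers, and in 2-strain fits 29 and 9. The alternatives for protein numbers were chosen after seeing the data. In red1Δ against mug174Δ, voom weights called 1 member higher. For pairs, the 2-strain fit called 8 in mug174Δ against WT, and no such fit was run within a strain.

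With the replicate number as a block, 24 members fell in mug174Δ and 44 in red1Δ, 5, 1 and 2 pairs were called in the order of comparisons used above, and 10 and 23 protein numbers fell. Among the members, the block ended the calls of rps101, rps1701, rps2202, rps27, rps3, rps401 and rps801 in mug174Δ and of rps13 in red1Δ (adjusted p of 0.0502 to 0.0726). Among pairs it ended the call for uS19 in red1Δ against mug174Δ and added that for rps101 and rps102 in mug174Δ against WT, and it changed no other call of a member or pair.

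With 1 library left out, the lone library of a strain was assumed to vary like the others. The members that fell ranged between 0 and 48 in mug174Δ, 3 and 48 in red1Δ, and 0 and 19 in red1Δ against mug174Δ, where 0 to 2 rose. The median of members relative to all features ranged between -0.78 and -0.68, -1.23 and -0.77, and -0.48 and -0.025 in these comparisons. Called pairs ranged between 0 and 8, 1 and 6, and 0 and 5. Within strains they ranged between 19 and 22 in mug174Δ, 19 and 20 in red1Δ and 16 and 19 in WT. Protein numbers that fell ranged between 0 and 29, 1 and 29, and 0 and 6.

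Signs turned for differences that had not passed. With 1 library left out, red1Δ against WT ranged between -0.45 and 0.43 for rps1401, -0.17 and 0.10 for rps2202, and -0.0068 and 0.20 for the ratio of rps1201 over rps1202, while red1Δ against mug174Δ ranged between -0.11 and 0.31 for rps1402 (-0.087 with scaling) and between -0.35 and 0.078 for rps2201. The cause was not tested. The 2 libraries per strain limit the precision of each value.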
